A study of Mus musculus with 103 samples.

Results

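Cytochrome P450 enzymes of families 1 to 4 were followed across 8 mouse tissues, each profiled on an Affymetrix array after labelling by each of 2 protocols. The members are the probe sets annotated to a single gene symbol of the form Cyp1 to Cyp4, a subfamily letter and a number. There were 58 such probe sets of 22690 on the array, for 49 genes, 1 of them (Cyp2d13) a transcribed pseudogene in RefSeq, and 7 genes had more than 1 probe set. A further 4 probe sets of these families carried several symbols and were left out.

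The study compared ways of amplifying and labelling small amounts of RNA. Total RNA of 8 tissues, labelled brain, embryo, heart, kidney, liver, lung, ovary and spleen, came from 1 commercial panel of mouse tissue RNA. Each RNA was labelled from 500 pg by BIIB, a protocol developed at Biogen Idec that yields cDNA, and from 1 ug by the Affymetrix one-cycle kit, which yields cRNA, with 1 array each, so 16 arrays. Universal mouse RNA, a commercial pool, was labelled from 500 pg by BIIB (4 arrays) and from 1 ug by one-cycle (4 arrays). The labels give no strain, age, sex or number of animals. The arrays of a tissue are technical repeats of 1 RNA, so p-values measure the spread between arrays and protocols and not between animals.

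P450 enzymes are heme proteins that use molecular oxygen and electrons from NADPH to oxidise their substrates. Families 1 to 3 act mainly on drugs, toxins, steroids and bile acids, and family 4 hydroxylates fatty acids and eicosanoids. The hepatocyte is their main site, while kidney proximal tubule, lung club cells and steroid-producing cells each carry enzymes of their own. In mice many of these genes are tandem copies lying side by side, so probe sets may also pick up a close relative, most of all those whose names end in _s_at, _x_at or _a_at.

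The tissue labels were set against marker genes before any P450 was described. The summed signal of 13 liver markers was 5994444 by BIIB and 3316597 by one-cycle on the arrays labelled brain, against 193678 and 147331 by the same protocols on the arrays labelled liver. The summed signal of 10 brain markers was 646 by BIIB and 1284 by one-cycle on the arrays labelled brain, against 651838 and 373804 on the arrays labelled liver. The markers thus go against both labels: the arrays labelled brain carried liver genes and the arrays labelled liver carried brain genes, under both protocols. Both are called by their labels below, and no sample was regrouped. Markers of the other 6 tissues were highest on the arrays bearing their label. In bulk tissue RNA, more cells of a type and more RNA per cell cannot be told apart.

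The P450 genes were spread very unevenly over the tissues. Of the 58 members, 43 had a signal of at least 500 on both arrays labelled brain, which is 74.1% of the members, against 41.8% of all probe sets. The count was 15 members in kidney and 15 in lung, 14 in embryo, 13 in ovary, 10 in heart, 5 in spleen and 5 on the arrays labelled liver. In these 7 tissues that is 8.6% to 25.9% of the members, against 45.3% to 49.7% of all probe sets. The tissue with the highest signal was the same under both protocols for 47 of the 58 members. It was the one labelled brain for 32 of them, kidney for 6, lung for 4, ovary for 3, and embryo and the one labelled liver for 1 each. No member peaked in heart or spleen under both protocols. These peaks were not counted over all probe sets, so the counts only describe the members.

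**Figure D1:**
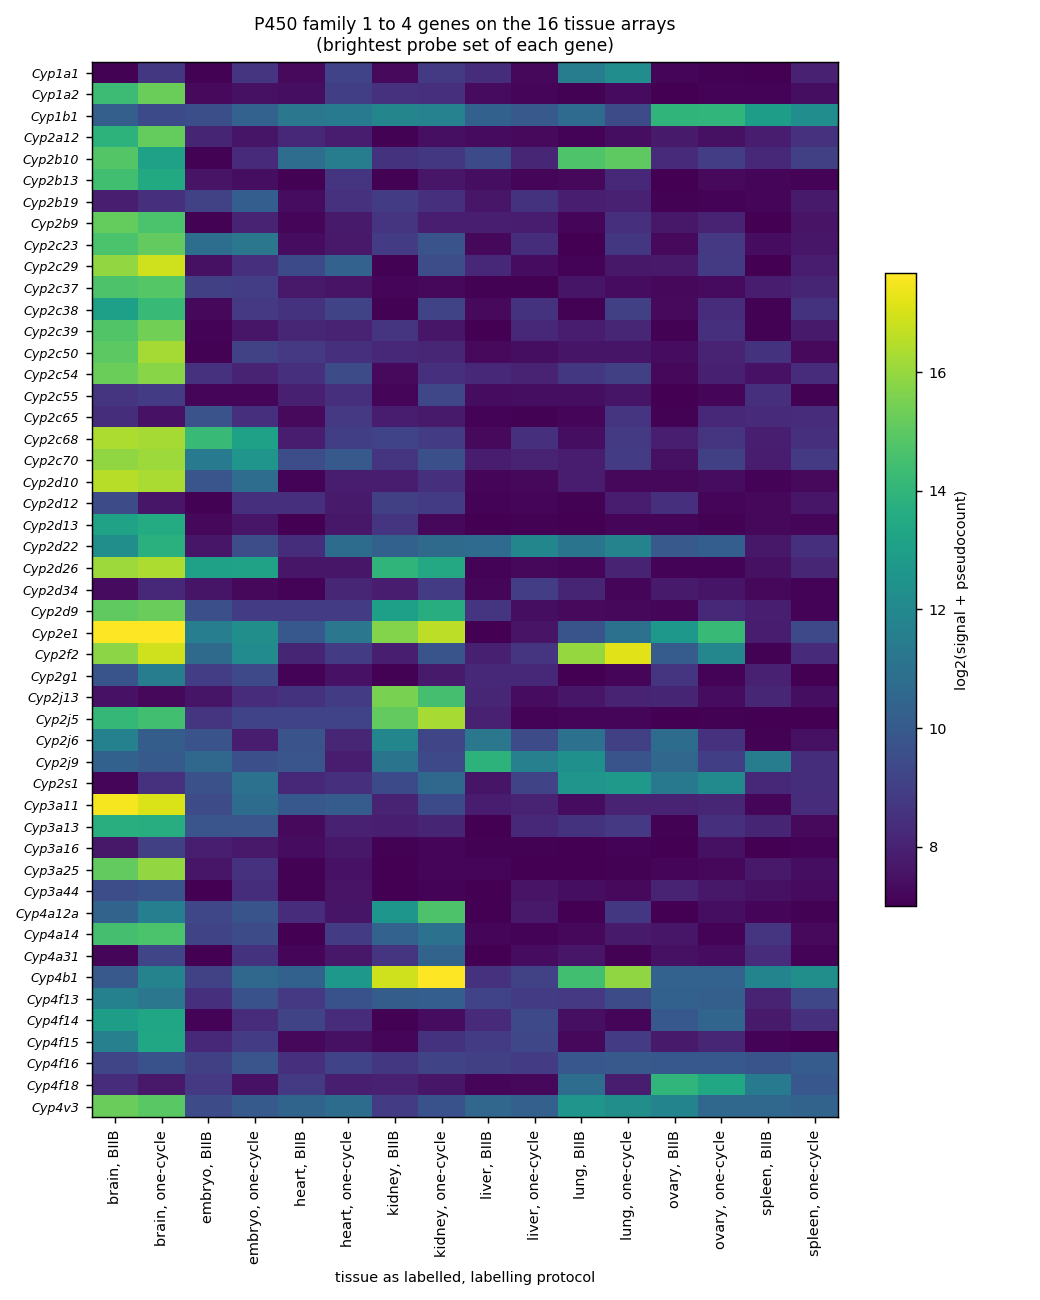
Heatmap of log2(signal + pseudocount) for the brightest probe set of each of the 49 genes (rows) on the 16 tissue arrays (columns, by tissue label and then BIIB and one-cycle). The pair of arrays labelled brain is bright for most rows, kidney and lung each have a short set of bright rows, and the arrays labelled liver are bright for Cyp2j9.

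For every tissue, limma compared its arrays with the average of the 7 others (two-sided, protocol as a covariate, Benjamini-Hochberg adjusted over 15180 probe sets). A member was called when it differed by at least 2-fold with an adjusted p under 0.05. Differences are given ± SE in log2(signal + pseudocount), the pseudocount being 5% of the arrays' common trimmed mean, which understates the change of dim genes. Only 46 members (40 genes) had a mean signal of at least 500 and entered the fit. A gene passes that filter only through a tissue where it is bright, so counts among the 46 are a description. On the arrays labelled brain 38 members (32 genes) were called higher, with 10.7% of all tested probe sets called higher. Of the 40 genes in the fit, 39 were called higher in at least 1 tissue, 20 of them in 1 tissue only, 16 in 2 and 3 in 3. The same count was not made over all genes, so it only describes the members. The most frequent pattern, in 17 genes, was a higher call on the arrays labelled brain alone. Members were also called lower, 5 of the 46 on the arrays labelled brain, where 24% of all tested probe sets were, 32 on the arrays labelled liver (19.4% of all) and 32 in spleen (19.5% of all). The members called lower were 22 in ovary (6.59% of all), 21 in lung (9% of all), 12 in embryo (5.71% of all) and 11 in kidney (12.4% of all). For the 7 tissues other than the one labelled brain, the average they were set against includes the arrays labelled brain.

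The Cyp2c genes, which in mice oxidise drugs and turn arachidonic acid into epoxides, lie together on chromosome 19. There were 11 genes, of which 9 passed the filter, and each of the 9 peaked on the arrays labelled brain under both protocols. Cyp2c29 had 63090.3 by BIIB and 123669 by one-cycle on the arrays labelled brain, against 4.9 to 1175 on the other 14 arrays (median 93.2). Both arrays labelled brain stood far above every other array, with no overlap, and the difference was 8.29 ± 0.42, adjusted p = 3.63e-08 (limma). Cyp2c37 had 26639 by BIIB and 29295 by one-cycle on the arrays labelled brain, against 8.7 to 393 on the other 14 arrays (median 51.2), a difference of 7.12 ± 0.21, adjusted p = 7.02e-09 (limma). Cyp2c50, Cyp2c54, Cyp2c39 and Cyp2c38 were likewise called higher there and in no other tissue, with differences of 7.69 ± 0.47, 7.28 ± 0.31, 7.32 ± 0.37 and 5.56 ± 0.28. In each of these 4 genes neither array labelled brain overlapped any other array.

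A further 3 Cyp2c genes were also called higher in embryo. Cyp2c68 had 83992 by BIIB and 76820.5 by one-cycle on the arrays labelled brain and 19262 by BIIB and 8692 by one-cycle in embryo, against 27 to 433 on the other 12 arrays (median 227). Cyp2c70, which in mice makes the muricholic bile acids, had 60282 by BIIB and 71127 by one-cycle on the arrays labelled brain and 2468 by BIIB and 5905 by one-cycle in embryo, against 51.3 to 898 on the other 12 arrays (median 303). Cyp2c23 had 25709 by BIIB and 35618 by one-cycle on the arrays labelled brain and 1714 by BIIB and 2270.2 by one-cycle in embryo, against 5.9 to 735 on the other 12 arrays (median 83.1). In all 3 genes the embryo arrays lay between the arrays labelled brain and all others.

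Enzymes of the Cyp2d genes on chromosome 15 handle many basic drugs and, in the case of Cyp2d9, hydroxylate testosterone. All 5 that passed the filter peaked on the arrays labelled brain, but they differed in where else they were found. Cyp2d10 had 92844 by BIIB and 81216 by one-cycle on the arrays labelled brain and 768 by BIIB and 1666 by one-cycle in embryo, against 10.7 to 232 on the other 12 arrays (median 28.5). Cyp2d26 had 69891 by BIIB and 82773 by one-cycle on the arrays labelled brain, 16007 by BIIB and 11003 by one-cycle in kidney and 8802 by BIIB and 8952 by one-cycle in embryo, against 13.5 to 158 on the other 10 arrays (median 38.8). It was called higher in all 3 tissues, with a difference of 4.18 ± 0.27, adjusted p = 4.67e-07 in kidney and 3.52 ± 0.27, adjusted p = 2.85e-06 in embryo (limma). Cyp2d9 had 33755 by BIIB and 38591 by one-cycle on the arrays labelled brain and 8175 by BIIB and 12766 by one-cycle in kidney, against 13.3 to 643 on the other 12 arrays (median 143). The highest of the rest was the BIIB array of embryo, where it was not called higher. The pseudogene Cyp2d13 was called higher on the arrays labelled brain alone, with 8965 by BIIB and 12080.5 by one-cycle, against 4 to 266 on the other 14 arrays (median 19.5).

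Cyp2d22, the mouse relative of human CYP2D6, was also called higher in 3 tissues. Its brighter probe set had 4780.5 by BIIB and 13696 by one-cycle on the arrays labelled brain, 2058 by BIIB and 3393 by one-cycle in lung and 1593 by BIIB and 3706 by one-cycle on the arrays labelled liver, against 73.7 to 1605 on the other 10 arrays (median 749). The lowest of these 6 arrays, the one labelled liver by BIIB, lay just below the highest of the rest, heart by one-cycle. The call in lung (1.28 ± 0.37, adjusted p = 0.0252, limma) and that on the arrays labelled liver (1.15 ± 0.37, adjusted p = 0.0268, limma) both ended when either of the tissue's arrays was left out, with adjusted p of 0.0915 to 0.287 in lung and 0.154 to 0.159 on the arrays labelled liver. The second probe set was called higher on the arrays labelled brain alone.

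The Cyp3a genes on chromosome 5 oxidise a broad range of drugs and steroids, and Cyp3a11 is the classical target of the pregnane X receptor in mouse liver. Cyp3a11 had 188857 by BIIB and 136968 by one-cycle on the arrays labelled brain, against 18.9 to 1622 on the other 14 arrays (median 149). The difference of 8.68 ± 0.35, adjusted p = 1.09e-08 (limma) was the largest among the tested members in the 8 tissue comparisons. Cyp3a25 had 35413 by BIIB and 63484 by one-cycle on the arrays labelled brain, against 4 to 241 on the other 14 arrays (median 21.4), and Cyp3a13 had 13233 by BIIB and 12600.2 by one-cycle, against 6.5 to 764 on the other 14 arrays (median 150.3). None of the 3 was called higher elsewhere. The other 2 genes of the subfamily did not pass the filter.

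Cyp1a1 and Cyp1a2, both targets of the aryl hydrocarbon receptor that oxidise polycyclic hydrocarbons and aromatic amines, lie next to each other on chromosome 9 and were found in different tissues. Cyp1a2 had 20013 by BIIB and 39408 by one-cycle on the arrays labelled brain, against 6.2 to 386 on the other 14 arrays (median 32.5), a difference of 7.24 ± 0.32, adjusted p = 1.48e-08 (limma). Cyp1a1 had 2725 by BIIB and 4661 by one-cycle in lung, against 5.8 to 434 on the other 14 arrays (median 30.1), a difference of 4.08 ± 0.48, adjusted p = 9.97e-05 (limma). The lung arrays of Cyp1a1 did not overlap any other, and on the arrays labelled brain Cyp1a1 had 9.4 by BIIB and 303 by one-cycle. Their start regions are shown because these neighbouring genes were brightest in different tissues, 250 bases before to 50 after the start, from RefSeq (GRCm38.p6), at chr9:57697363-57697662 (forward strand) for Cyp1a1 and chr9:57683606-57683905 (reverse strand) for Cyp1a2.

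Capitals mark matches, on either strand, to 5 short motifs, with no overlap between them: the TATA box TATAAA, the core of the aryl hydrocarbon receptor's response element GCGTG, the HNF1 half-site GTTAAT, the CCAAT box and the nuclear receptor half-site AGGTCA.

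Cyp1a1: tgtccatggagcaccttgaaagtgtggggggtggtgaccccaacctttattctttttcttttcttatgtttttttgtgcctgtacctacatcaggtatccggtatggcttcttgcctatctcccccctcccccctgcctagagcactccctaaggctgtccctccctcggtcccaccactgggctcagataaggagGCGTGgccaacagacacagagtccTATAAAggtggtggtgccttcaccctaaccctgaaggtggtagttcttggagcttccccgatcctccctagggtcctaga

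Cyp1a2: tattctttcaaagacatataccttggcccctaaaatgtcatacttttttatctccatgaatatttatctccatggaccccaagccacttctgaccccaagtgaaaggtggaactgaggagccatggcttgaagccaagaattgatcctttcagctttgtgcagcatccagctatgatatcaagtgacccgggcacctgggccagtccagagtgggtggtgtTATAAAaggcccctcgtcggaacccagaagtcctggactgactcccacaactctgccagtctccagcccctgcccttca

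Both windows hold TATAAA, beginning 30 bases before the start in Cyp1a1 and 29 before it in Cyp1a2, and GCGTG was found in the Cyp1a1 window alone. Promoters were given for 39 of the 49 genes, as 45 windows. The windows are not independent, since Cyp4f14 alone had 4 and some genes are close copies. TATAAA was in 17 of these 45 (37.8%), against 13.6% of all 32851 windows of the same length. The share of windows with GCGTG was 22.2% for the members and 32.4% for all, with GTTAAT 6.7% and 7.1%, with CCAAT 51.1% and 37.4%, and with AGGTCA 26.7% and 16.3%. A match to so short a motif is a description of the letters and not a binding site.

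The Cyp2b genes on chromosome 7, whose best known member Cyp2b10 is induced through the constitutive androstane receptor, fell into different patterns despite being close copies. Cyp2b9 had 36089 by BIIB and 25914 by one-cycle on the arrays labelled brain, against 4.2 to 269 on the other 14 arrays (median 98.4), a difference of 7.17 ± 0.35, adjusted p = 2.54e-08 (limma). Cyp2b13 had 21850.3 by BIIB and 11356 by one-cycle on the arrays labelled brain, against 4.6 to 277 on the other 14 arrays (median 26.5), a difference of 6.54 ± 0.39, adjusted p = 1.27e-07 (limma). Both genes were thus bright on one pair of arrays only. Cyp2b10 had 26741 by BIIB and 33576 by one-cycle in lung and 28496 by BIIB and 8623 by one-cycle on the arrays labelled brain, against 10.2 to 2786 on the other 12 arrays (median 278). The highest of the remaining arrays were those of heart, with 1686 by BIIB and 2786 by one-cycle. All 3 probe sets of Cyp2b10 were called higher in lung, the brightest with 5.24 ± 0.47, adjusted p = 1.74e-05, and on the arrays labelled brain, the brightest with 4.18 ± 0.47, adjusted p = 2.93e-05 (limma). In lung against the arrays labelled brain none of the 3 passed the test.

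The start regions of these 3 genes are given at chr7:26173159-26173458 (forward strand) for Cyp2b9, chr7:26061245-26061544 (forward strand) for Cyp2b13 and chr7:25897408-25897707 (forward strand) for Cyp2b10, with the same motifs in capitals.

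Cyp2b9: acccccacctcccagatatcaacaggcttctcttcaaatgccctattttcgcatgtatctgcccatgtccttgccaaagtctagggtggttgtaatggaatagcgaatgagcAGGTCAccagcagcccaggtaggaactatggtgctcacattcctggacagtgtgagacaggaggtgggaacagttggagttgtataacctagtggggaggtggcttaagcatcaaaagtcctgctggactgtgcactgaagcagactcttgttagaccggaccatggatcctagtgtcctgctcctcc

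Cyp2b13: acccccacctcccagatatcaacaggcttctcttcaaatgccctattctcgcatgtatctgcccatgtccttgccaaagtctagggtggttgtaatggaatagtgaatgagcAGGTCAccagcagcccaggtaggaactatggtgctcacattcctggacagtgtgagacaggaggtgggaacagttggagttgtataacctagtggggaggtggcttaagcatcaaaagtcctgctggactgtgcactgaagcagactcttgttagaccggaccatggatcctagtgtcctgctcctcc

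Cyp2b10: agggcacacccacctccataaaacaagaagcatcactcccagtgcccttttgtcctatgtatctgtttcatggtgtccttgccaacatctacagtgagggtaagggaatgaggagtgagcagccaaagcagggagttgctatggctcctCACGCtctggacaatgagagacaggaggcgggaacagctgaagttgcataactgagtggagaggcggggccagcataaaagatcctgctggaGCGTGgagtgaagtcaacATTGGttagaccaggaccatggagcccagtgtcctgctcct

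In a global alignment the windows of Cyp2b9 and Cyp2b13 were identical at 298 of 300 positions (99.3%), and that of Cyp2b10 matched either of them at 229 of 314 (72.9%). The unrelated windows of Cyp1a1 and Cyp2b9, aligned the same way, matched at 50.4%. Cyp2b9 and Cyp2b13 both hold AGGTCA, beginning 138 bases before the start, and Cyp2b10 does not. Cyp2b10 holds GCGTG on both strands and CCAAT on the opposite strand, which neither of the others does.

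Cyp2e1, which oxidises ethanol and acetaminophen, was called higher in 3 tissues. Its signal was 202761 by BIIB and 208512 by one-cycle on the arrays labelled brain, 52489 by BIIB and 98447 by one-cycle in kidney and 6399 by BIIB and 18623 by one-cycle in ovary, against 5.5 to 4806 on the other 10 arrays (median 799.6). Each tissue's pair lay below the one before it with no overlap, and the ovary pair lay above all the rest. The lowest values were those on the arrays labelled liver, with 5.5 by BIIB and 61.7 by one-cycle. The ovary call (1.64 ± 0.30, adjusted p = 0.00284, limma) ended without the one-cycle ovary array (adjusted p = 0.0864) and without both arrays labelled liver (adjusted p = 0.0632). Cyp2a12, a steroid and bile acid hydroxylase, was called higher on the arrays labelled brain alone, with 15278 by BIIB and 36148 by one-cycle, against 9.8 to 239 on the other 14 arrays (median 60.6).

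In kidney 9 members (8 genes) were called higher, where 10.6% of all tested probe sets were. Cyp2j13 had 46672 by BIIB and 23751 by one-cycle in kidney, against 24.5 to 344 on the other 14 arrays (median 109), a difference of 7.15 ± 0.34, adjusted p = 4.68e-08 (limma). It was called higher in kidney only, and on the arrays labelled brain it had 60.2 by BIIB and 24.5 by one-cycle. Cyp2j5, an arachidonic acid epoxygenase, had 35639.9 by BIIB and 78206 by one-cycle in kidney and 17345 by BIIB and 22380.4 by one-cycle on the arrays labelled brain, against 2.9 to 447 on the other 12 arrays (median 17.7). The kidney pair lay above the pair labelled brain without overlap, and both lay above every other array.

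Cyp4b1, which in rodents activates the lung toxin ipomeanol, had 120964 by BIIB and 205558 by one-cycle in kidney and 22135 by BIIB and 61276 by one-cycle in lung, against 242 to 6474 on the other 12 arrays (median 1179). The difference was 6.04 ± 0.38, adjusted p = 4.55e-07 in kidney and 3.65 ± 0.38, adjusted p = 4.71e-05 in lung (limma), and the pairs did not overlap each other or any other array. Cyp4a12a, which makes the vasoactive lipid 20-hydroxyeicosatetraenoic acid in mouse kidney, had 6148 by BIIB and 26308 by one-cycle in kidney and 1232 by BIIB and 3016 by one-cycle on the arrays labelled brain, against 3 to 749 on the other 12 arrays (median 56.6). Cyp4a14, a fatty acid hydroxylase driven by Ppara, was the other way round, with 23720.2 by BIIB and 25216 by one-cycle on the arrays labelled brain and 1183 by BIIB and 1919 by one-cycle in kidney, against 6.1 to 583 on the other 12 arrays (median 53.1). Its kidney call (1.84 ± 0.43, adjusted p = 0.00808, limma) ended without either kidney array, with adjusted p of 0.0519 to 0.128.

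The Cyp2j genes lie together on chromosome 4. Cyp2j5 and Cyp2j13 were brightest in kidney under both protocols, and Cyp2j9 on the arrays labelled liver. Cyp2j9, known from mouse brain as an arachidonic acid hydroxylase, had 15118 by BIIB and 3071 by one-cycle on the arrays labelled liver, against 105 to 5129 on the other 14 arrays (median 844). By each protocol its array labelled liver was the brightest, although the one-cycle value there lay below the BIIB value in lung. Cyp2j9 and Cyp2d22 were the members called higher on the arrays labelled liver, 2 of 46, where 15.3% of all tested probe sets were called higher, and the difference of Cyp2j9 was 2.75 ± 0.42, adjusted p = 0.000279 (limma). Neither gene was called higher there in the fit without the protocol covariate. Cyp2j6 was called higher on the arrays labelled brain (1.54 ± 0.43, adjusted p = 0.013, limma), but its BIIB signal was 3689 in kidney and 3131 on the array labelled brain, and the call ended without either array labelled brain (adjusted p of 0.0839 to 0.114). The start regions of the 2 genes brightest in kidney and of Cyp2j9, brightest on the arrays labelled liver, are given at chr4:96664070-96664369 (reverse strand) for Cyp2j5, chr4:96077491-96077790 (reverse strand) for Cyp2j13 and chr4:96591436-96591735 (reverse strand) for Cyp2j9.

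Cyp2j5: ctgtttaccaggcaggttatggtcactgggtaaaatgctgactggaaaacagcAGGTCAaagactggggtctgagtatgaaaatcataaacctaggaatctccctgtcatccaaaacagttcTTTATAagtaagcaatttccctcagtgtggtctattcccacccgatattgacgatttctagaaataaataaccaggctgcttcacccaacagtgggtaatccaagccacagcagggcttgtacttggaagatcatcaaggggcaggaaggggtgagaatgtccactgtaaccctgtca

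Cyp2j13: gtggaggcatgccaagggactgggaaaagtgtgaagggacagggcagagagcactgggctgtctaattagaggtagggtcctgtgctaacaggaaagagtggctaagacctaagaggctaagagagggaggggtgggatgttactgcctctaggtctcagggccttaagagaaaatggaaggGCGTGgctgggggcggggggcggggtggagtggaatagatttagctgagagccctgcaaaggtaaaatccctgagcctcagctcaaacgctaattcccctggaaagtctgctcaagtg

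Cyp2j9: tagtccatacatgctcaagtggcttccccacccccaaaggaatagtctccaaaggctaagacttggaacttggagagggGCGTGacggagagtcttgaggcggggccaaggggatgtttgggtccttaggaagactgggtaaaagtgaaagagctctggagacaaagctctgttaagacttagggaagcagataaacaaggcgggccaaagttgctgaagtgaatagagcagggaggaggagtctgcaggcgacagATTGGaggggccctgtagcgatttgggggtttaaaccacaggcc

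The windows of Cyp2j5 and Cyp2j13 matched at 50.9% of aligned positions and those of Cyp2j5 and Cyp2j9 at 48.4%, close to the 50.4% of the unrelated pair above. Cyp2j5 holds AGGTCA on its own strand and TATAAA on the opposite strand, while Cyp2j13 and Cyp2j9 each hold GCGTG. Cyp2j13 had 2 windows, and only the window shown was aligned and described here.

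In lung 10 members (7 genes) were called higher, where 12.4% of all tested probe sets were. Cyp2f2, the club cell enzyme that activates naphthalene, had 64604 by BIIB and 147702 by one-cycle in lung and 57138 by BIIB and 121666 by one-cycle on the arrays labelled brain, against 9.6 to 4417 on the other 12 arrays (median 307). Within each protocol lung was slightly above the array labelled brain, and the pairs overlapped. The difference was 6.28 ± 0.27, adjusted p = 1.27e-07 in lung and 6.02 ± 0.27, adjusted p = 1.61e-08 on the arrays labelled brain (limma). Cyp2s1, an epithelial enzyme, had 5972 by BIIB and 6691 by one-cycle in lung and 2426 by BIIB and 4202 by one-cycle in ovary, against 16.9 to 1982 on the other 12 arrays (median 231). The lung pair lay above the ovary pair, and both lay above the rest. Cyp4v3, a fatty acid hydroxylase whose human counterpart is lost in a retinal dystrophy, had 38131 by BIIB and 30970.1 by one-cycle on the arrays labelled brain and 5923 by BIIB and 4778 by one-cycle in lung, against 350.1 to 3428 on the other 12 arrays (median 1246). Its lung call (1.44 ± 0.32, adjusted p = 0.00665, limma) ended without either lung array, with adjusted p of 0.0513 to 0.116. The lung arrays also carried heart muscle markers, whose summed signal over 10 genes was 237792 by BIIB and 115651 by one-cycle, against 3867662 and 1993726 in heart, and their part in these results was not tested.

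**Figure D2:**
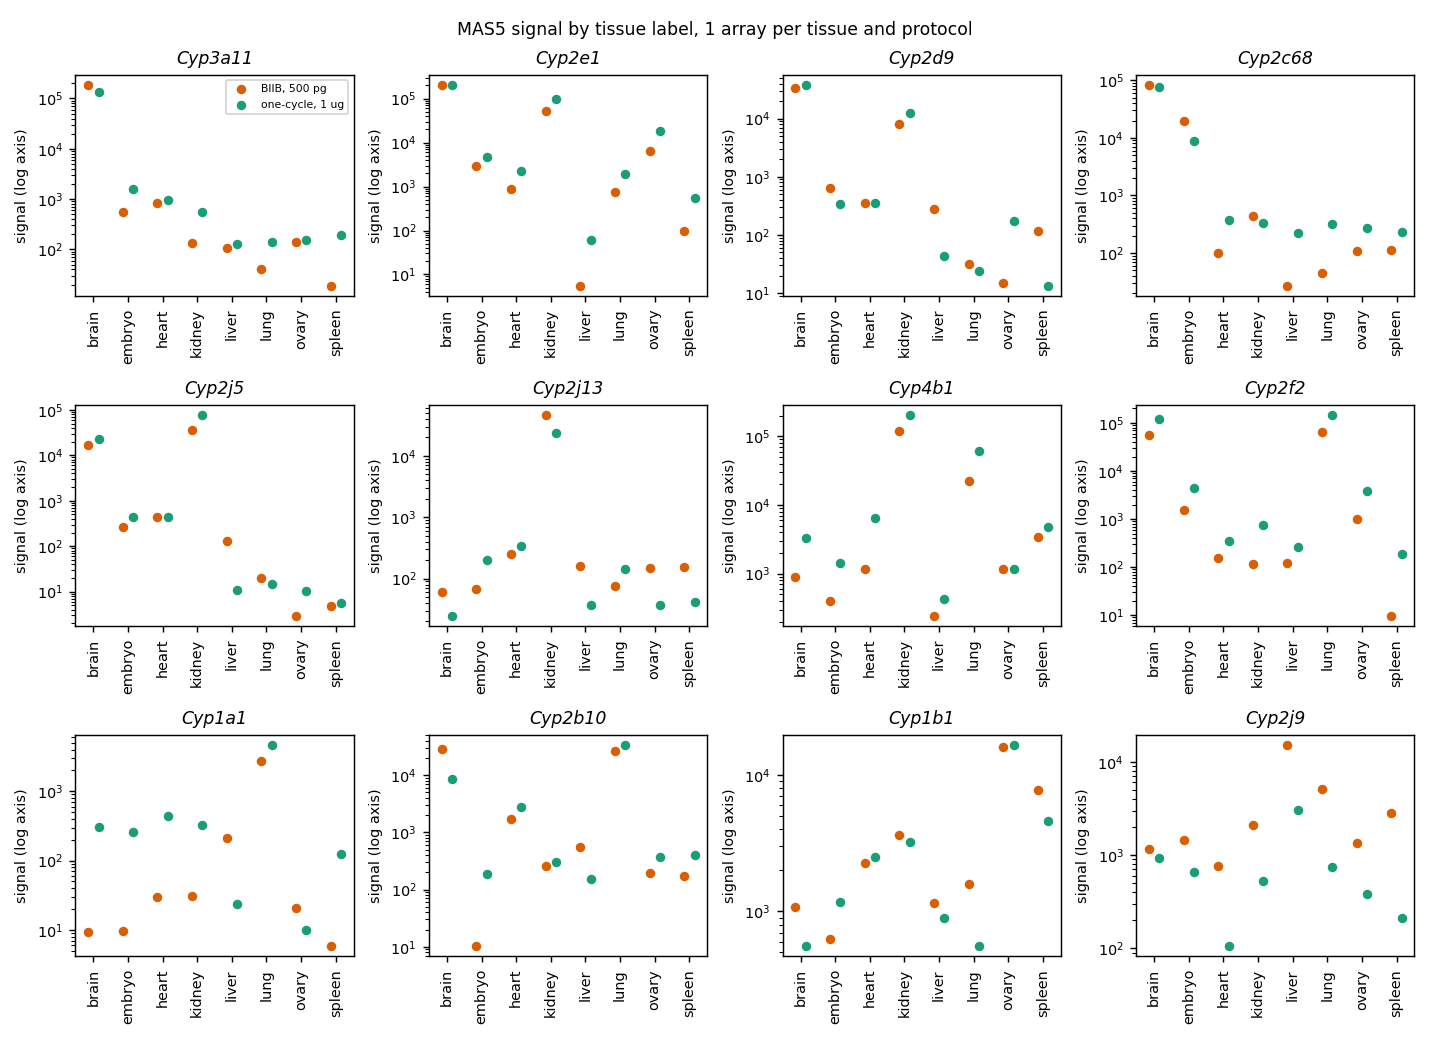
Signal (log axis) of 12 genes in the 8 tissues as labelled, with the BIIB array (orange) left of the one-cycle array (green). Cyp3a11 stands out on the arrays labelled brain, Cyp2j13 in kidney, Cyp1a1 in lung and Cyp1b1 in ovary, while Cyp2e1, Cyp2j5, Cyp4b1 and Cyp2f2 are bright in more than 1 tissue.

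Kidney and lung were also each set against the arrays labelled brain, and lung against kidney, in the same fit. In kidney 7 members were higher than on the arrays labelled brain, where 12.7% of all probe sets were, and 33 were lower, where 7.71% were. The 7 were 2 probe sets of Cyp2j5 and 1 each of Cyp2j13, Cyp4b1, Cyp4a12a, Cyp2s1 and Cyp1b1. The difference was 7.65 ± 0.45, adjusted p = 2.16e-07 for Cyp2j13, 6.40 ± 0.51, adjusted p = 2.25e-06 for Cyp4b1 and 1.42 ± 0.41, adjusted p = 0.0289 for Cyp2j5 (limma). The call of Cyp2j5 ended without the one-cycle kidney array or either array labelled brain, with adjusted p of 0.0767 to 0.262. The calls of Cyp4a12a and Cyp1b1, and the lower calls of Cyp2d9 and Cyp2e1, also ended when 1 of these arrays was left out, with adjusted p of 0.0541 to 0.204. In lung 3 members were higher than on the arrays labelled brain, where 24.3% of all probe sets were, and 33 were lower, where 11.5% were. The 3 were Cyp2s1 (4.82 ± 0.42), Cyp4b1 (4.31 ± 0.51) and Cyp1a1 (3.94 ± 0.63). Cyp2f2 and Cyp2b10, both bright in lung, were not among them. These comparisons share the arrays labelled brain.

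In lung 8 members (5 genes) were higher than in kidney, where 15.1% of all probe sets were, and 12 (11 genes) were lower, where 11.5% were. The higher genes were Cyp2f2 (7.74 ± 0.35), Cyp2b10 (6.23 ± 0.62), Cyp1a1 (3.80 ± 0.63), Cyp4v3 (3.13 ± 0.43) and Cyp2s1 (2.67 ± 0.42). Among the lower ones the differences were -8.54 ± 0.41 for Cyp2j5, -7.18 ± 0.45 for Cyp2j13, -6.09 ± 0.35 for Cyp2d26, -6.08 ± 0.50 for Cyp2d9 and -5.77 ± 0.57 for Cyp4a12a. Cyp4b1 was lower in lung (-2.09 ± 0.51, adjusted p = 0.0088, limma), a call that ended without either BIIB array (adjusted p of 0.0741 to 0.0745). The calls of Cyp1a2, Cyp1b1 and Cyp2c23 in this comparison also ended when 1 of its arrays was left out.

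**Figure D3:**
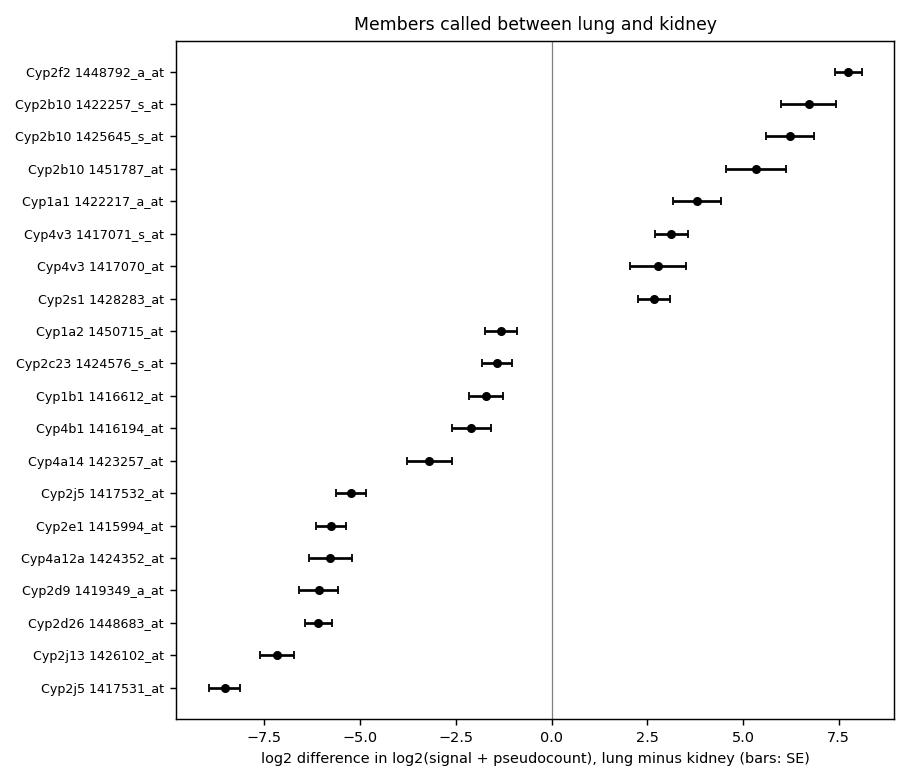
Log2 difference, lung minus kidney, of the 20 members called in that comparison (points, with bars for the SE). The points right of 0 are Cyp2f2, Cyp2b10, Cyp1a1, Cyp4v3 and Cyp2s1, and Cyp2j5 is farthest left.

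In ovary 5 members were called higher, where 8.83% of all tested probe sets were. Cyp1b1, which oxidises estrogens and polycyclic hydrocarbons outside the liver, had 16073 by BIIB and 16653 by one-cycle in ovary and 7829 by BIIB and 4629 by one-cycle in spleen, against 555 to 3631 on the other 12 arrays (median 1163). Cyp4f18, a neutrophil enzyme that degrades leukotriene B4, had 16378 by BIIB and 10756 by one-cycle in ovary and 2609.7 by BIIB and 837 by one-cycle in spleen, against 20.4 to 1669 on the other 12 arrays (median 106). For both genes the ovary pair lay above all other arrays, with a difference of 3.20 ± 0.34, adjusted p = 7.08e-05 for Cyp1b1 and 5.21 ± 0.44, adjusted p = 1.41e-05 for Cyp4f18 (limma). The spleen arrays of Cyp4f18 overlapped the rest, whose highest value was that of lung by BIIB. In spleen these were the 2 members called higher, where 14.8% of all tested probe sets were. Both spleen calls ended without the BIIB spleen array (limma, adjusted p = 0.074 for Cyp1b1 and 0.127 for Cyp4f18). The other ovary calls were Cyp2s1 and Cyp2e1, given above, and Cyp4f14, whose call ended without either ovary array (adjusted p of 0.118 to 0.136).

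The Cyp4f genes other than Cyp4f18 hydroxylate leukotrienes and long-chain fatty acids. Cyp4f14 had 7877 by BIIB and 10088 by one-cycle on the arrays labelled brain and 861 by BIIB and 1297 by one-cycle in ovary, against 9.4 to 524 on the other 12 arrays (median 138). Cyp4f15 had 3105 by BIIB and 10233 by one-cycle on the arrays labelled brain, against 6.4 to 498 on the other 14 arrays (median 126), and Cyp4f13 had 3169.6 by BIIB and 2245 by one-cycle, against 138 to 1133 on the other 14 arrays (median 527). All 3 pairs labelled brain lay above every other array. Cyp4f16 was the exception, with 229 to 980 on all 16 arrays by its brighter probe set and no call in any tissue.

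In embryo 5 members were called higher, Cyp2c68, Cyp2c70, Cyp2c23, Cyp2d26 and Cyp2d10, where 10.3% of all tested probe sets were. The largest difference was that of Cyp2c68 (4.24 ± 0.41, adjusted p = 2.25e-05, limma), and the call of Cyp2d10 ended without the one-cycle embryo array (adjusted p = 0.0868). Liver markers had a summed signal of 1325570 by BIIB and 1064209 by one-cycle in embryo, where 12 of 13 were called higher, and their part in these calls was not tested. In heart no member was called higher by limma, where 10.4% of all tested probe sets were, and 15 were called lower, where 12.2% of all were. At an unadjusted p under 0.05, in either direction, 20 of the 46 passed there.

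The proteins that serve P450 enzymes were on a separate list of 9 genes, of which 8 were on the array. On the arrays labelled brain 5 were called higher, where 10.7% of all tested probe sets were. They were the heme synthesis enzyme Alas1 (2.70 ± 0.23), the electron donor Cyb5a (2.67 ± 0.24), its reductase Cyb5r3 (1.40 ± 0.23), the heme-binding Pgrmc1 (2.98 ± 0.26) and the heme-degrading Hmox1 (1.25 ± 0.29). Cyb5b, Fech and Hmox2 were not called there. Hmox1 was brighter in spleen, with 5649 by BIIB and 13079 by one-cycle, against 1534 and 3808 on the arrays labelled brain. Alas1 had 76113 by BIIB and 65772 by one-cycle on the arrays labelled brain, against 4788 to 25842 on the other 14 arrays (median 9996), and the pair stood above every other array. In kidney Cyb5a (2.19 ± 0.24) and Cyb5b (1.57 ± 0.27) were higher and Hmox1 lower (-1.06 ± 0.29), and in lung Cyb5r3 was higher (1.21 ± 0.23).

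Transcription factors known to control P450 genes were on a list of 16, of which 15 were on the array and 13 were tested. On the arrays labelled brain 10 were higher and 0 lower, where 10.7% of all tested probe sets were higher and 24% lower. The largest differences were those of the hepatocyte factor Hnf4a (5.58 ± 0.27) and of the constitutive androstane receptor Nr1i3 (5.21 ± 0.41). Nr1i3 had 3964 by BIIB and 11208 by one-cycle on the arrays labelled brain, against 8 to 209.6 on the other 14 arrays (median 45.2), and in lung, where Cyp2b10 was bright, it had 156 by BIIB and 8 by one-cycle. The part of Nr1i3 in the signals of Cyp2b10 was not tested. In kidney Hnf4a (5.79 ± 0.27), the bile acid receptor Nr1h4 (5.17 ± 0.34) and Ppara (2.59 ± 0.44) were higher and Foxa2 (-1.57 ± 0.44) was lower. Hnf4a had 33453 by BIIB and 36192 by one-cycle in kidney and 31735 by BIIB and 29287 by one-cycle on the arrays labelled brain, while lung had 13.1 by BIIB and 36 by one-cycle.

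In lung against the other tissues, the aryl hydrocarbon receptor Ahr (2.55 ± 0.22), Foxa2 (3.09 ± 0.44), the glucocorticoid receptor Nr3c1 (1.59 ± 0.24) and the oxidative stress factor Nfe2l2 (1.04 ± 0.25) were higher, and Hnf4a (-3.20 ± 0.27), Nr1h4 (-2.49 ± 0.34) and Ppara (-1.50 ± 0.44) were lower. Ahr had 15649 by BIIB and 14478 by one-cycle in lung, against 772 to 7216 on the other 14 arrays (median 2085). The lung pair of Ahr stood above every other array, as did that of Cyp1a1. The other Cyp1 genes, Cyp1a2 (-1.445 ± 0.315) and Cyp1b1 (-1.293 ± 0.336), were called lower in lung. A link between Ahr and these genes was not tested.

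Of the 12 members that did not pass the filter, 3 were dimmer probe sets of Cyp1b1 and Cyp4f16, and the others covered 9 genes. Their mean signals over the 16 arrays were between 49.3 and 422. The brightest that missed the filter was a Cyp1b1 probe set at 422 and the dimmest that passed was a Cyp2d13 probe set at 523.5. Cyp2g1, an enzyme of the olfactory mucosa, reached 749 by BIIB and 2799 by one-cycle on the arrays labelled brain, against 3.6 to 526 on the other 14 arrays (median 76). Cyp2b19, known from skin keratinocytes, was brightest in embryo, with 416 by BIIB and 1028 by one-cycle, and Cyp4a31 in kidney, with 269 by BIIB and 1238 by one-cycle. The second Cyp1b1 probe set, at 422, was brightest in ovary, with 714 by BIIB and 2856 by one-cycle, as the brighter one was.

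Labelling protocols were compared across the 8 tissues. Of the 46 members 7 were called between BIIB and one-cycle (limma, tissue as a covariate), where 36.6% of all tested probe sets were called in either direction. BIIB gave lower signals for Cyp2c38 (-1.42 ± 0.18), Cyp2f2 (-1.26 ± 0.18), Cyp4b1 (-1.12 ± 0.25) and the brighter probe set of Cyp2d22 (-1.11 ± 0.25). It gave higher signals for Cyp2j9 (1.82 ± 0.28), Cyp2j6 (1.67 ± 0.28) and Cyp4f18 (1.02 ± 0.29). Cyp2j9 was higher by BIIB in all 8 tissues, with 15118 by BIIB and 3071 by one-cycle on the arrays labelled liver and 2802 by BIIB and 213 by one-cycle in spleen. Cyp4f18 was under 2-fold in the 6 fits that left out an array of embryo, lung or spleen, with differences of 0.74 to 0.99. The calls of Cyp2d22 and Cyp4b1 ended in the same way without either heart array, with differences of -0.93 and -0.95.

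In universal RNA, where the protocols had 4 arrays each, few P450 genes were bright. Only 6 members passed the filter, and 3 of them were called (limma), where 40.8% of all 13077 tested probe sets were called in either direction. Cyp2c55, which was at or under 492 on all tissue arrays, had 1198, 1388, 1293 and 1116 by BIIB, against 2999, 3924, 2701 and 4047 by one-cycle. All 4 BIIB arrays lay below all 4 one-cycle arrays, with means of 1249 ± 118 by BIIB and 3418 ± 669 by one-cycle (SD, n = 4 each) and a difference of -1.35 ± 0.17, adjusted p = 7.64e-05 (limma). The second Cyp1b1 probe set had 212, 247, 187 and 544 by BIIB, against 720.1, 873, 1043 and 835 by one-cycle, again without overlap (-1.29 ± 0.24, adjusted p = 0.00106, limma). Its brighter probe set went the other way, with 4594, 5599.9, 6044 and 8248 by BIIB, against 4372, 3934, 4289 and 4199 by one-cycle, and was below 2-fold (0.50 ± 0.18, adjusted p = 0.0333, limma). Cyp2s1 had 835, 536, 774 and 155 by BIIB, against 1089, 1373, 1197 and 965 by one-cycle, with the BIIB arrays all below the one-cycle arrays (-1.01 ± 0.35, adjusted p = 0.0289, limma).

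**Figure D4:**
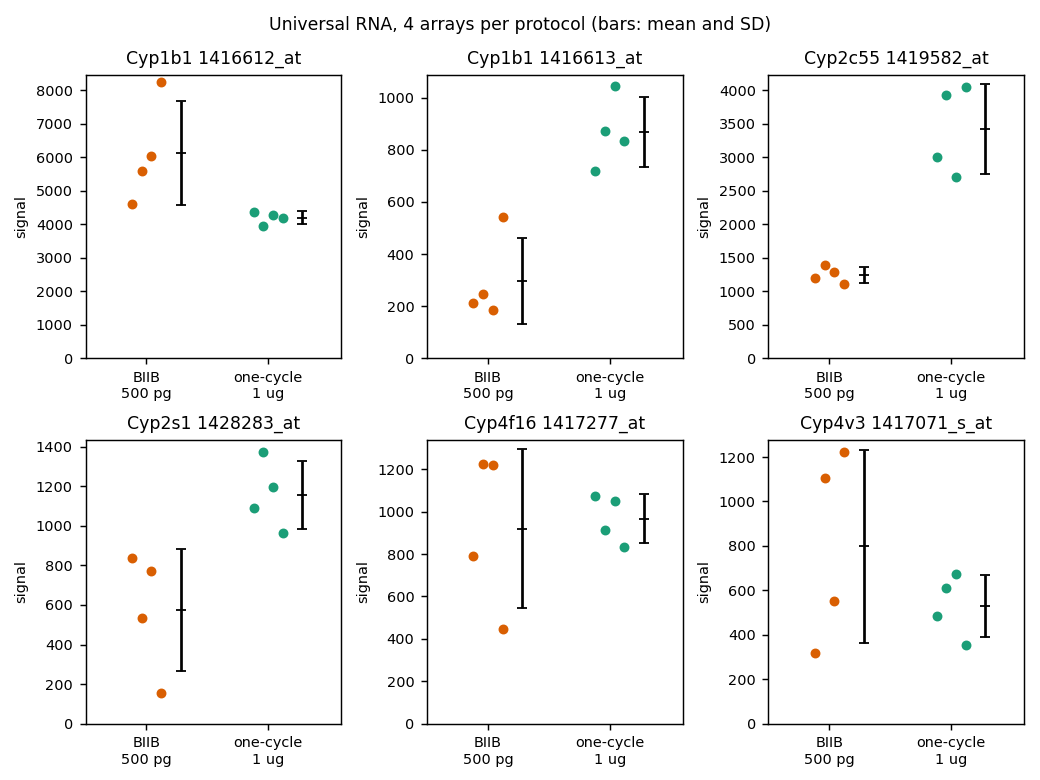
Signal of the 6 members that passed the filter in universal RNA, by BIIB from 500 pg (orange) and by one-cycle from 1 ug (green), with 1 point per array and the mean and SD of the 4 arrays. The BIIB arrays lie below the one-cycle arrays for Cyp2c55, Cyp2s1 and the second Cyp1b1 probe set, and above them for the brighter Cyp1b1 probe set.

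The Cyp2s1 call ended without 5 of the 8 arrays in turn, at an adjusted p of 0.0512 to 0.0724 without BIIB array 2 or one-cycle array 1, 2 or 3, and at -0.62, under 2-fold, without BIIB array 4. Whether the protocol difference of a member differed between universal RNA and the tissues was tested as an interaction in a joint fit with 45 members. It was called for 1, the dimmer probe set of Cyp2d22, at 1.47 ± 0.35, adjusted p = 0.0471 (limma), where 1.03% of all 15102 tested probe sets were called. The call ended with a smaller pseudocount, without the filter and without most of the arrays left out in turn. That probe set had 142, 235, 214 and 448 by BIIB, against 49.5, 191, 167 and 152 by one-cycle in universal RNA, while in 7 of the 8 tissues its BIIB array was the lower one.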

How the data were processed

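The authors deposited linear signal intensities, 1 per probe set and array, made with MAS5 per the submitters' processing notes. Its settings and version are not given in the sources used here. The mean of each array without its top and bottom 2% lay between 2499.39 and 2499.94, so arrays had already been scaled to a common level, while medians of the tissue arrays lay between 432 and 973.7. Precision is limited by having 1 array per tissue and protocol.

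Gene symbols came from the platform annotation, and all 49 member symbols matched RefSeq by Entrez number. Signals were used as deposited, in log2 after adding a pseudocount of 5% of the trimmed mean. Probe sets with a mean under 500 over the arrays of a fit, and 64 control probe sets, were not tested. R 4.3.3 with limma 3.58.1 was used for all tests, by lmFit followed by eBayes, with Benjamini-Hochberg adjustment over all probe sets of a fit. The tissue fit held 16 arrays with 7 residual degrees of freedom and the universal RNA fit 8 arrays with 6. The fits were tested on simulated data. Genes called higher in a tissue were named with both arrays' values. Others were named if among the 5 brightest, or if bright with the same peak tissue under both protocols. A gene was represented by its brightest probe set. Alternatives were quantile normalization, a pseudocount of 25, no filter, no protocol covariate and a replicate block. Others left out single arrays, or both arrays labelled brain or liver. Members and lists were chosen with earlier results of these data known. Promoter windows were aligned with Biopython.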

Additional observations from a re-analysis of the deposited data

Results flagged for a closer look

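For the second Cyp1b1 probe set in universal RNA, 1 of the 4 BIIB arrays lay far from the others, at a signal of 543.7, against 212, 246.8 and 187.2 on the other BIIB arrays. Chance alone sets off this check of the gap between neighbouring values in about 1 of 20 groups, and 12 groups of 4 arrays were looked at. The difference between the protocols in the dimmer Cyp2d22 probe set differed between universal RNA and the tissues, by 1.47 ± 0.35 (SE, limma, adjusted p = 0.0471).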

How the results depend on the processing

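No call turned its direction. Of the results for single genes, 3044 stayed on their side of the threshold and 78 lost it, most of them when 1 array was left out. The arrays of a tissue number 2, so without 1 of them the other is assumed to vary like those of other tissues. Quantile normalization gave 1 called member between the protocols in universal RNA, against 3 as reported, and 8 were called without the filter. A pseudocount of 25 gave 16 members called between the protocols over the tissues, against 7, and the interaction of protocol and RNA gave 0, against 1, under that pseudocount and without the filter. Counts for a tissue are of members called higher. Without the protocol covariate 0 were called on the arrays labelled liver, 3 in ovary and 1 in spleen. With both arrays labelled brain left out, 1 member was called in heart. Leaving out 1 array at a time gave 0 to 1 called members in heart (1 without the BIIB array labelled brain), 1 to 3 on the arrays labelled liver, 6 to 10 in lung (6 without either lung array), 3 to 5 in ovary (3 without the one-cycle ovary array), 0 to 2 in spleen (0 without the BIIB spleen array) and 0 to 1 for the interaction (0 in 19 of 24 cases). With the replicate block, 3 members were called in universal RNA, as without it, and 0 for the interaction. The replicate numbers did not pair the arrays, with correlations of deviations of -0.047, 0.004, -0.026 and -0.031. The cause of these changes was not tested.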

Other observations

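Several P450 genes are known to differ between male and female mouse liver, and the labels give no sex. Of those known as higher in males, Cyp2d9 and Cyp4a12a were described above, and Cyp7b1, an oxysterol hydroxylase outside families 1 to 4, had 34576 by BIIB and 21749 by one-cycle in kidney and 7541 by BIIB and 3766 by one-cycle on the arrays labelled brain. Of those known as higher in females, Cyp2b9 and Cyp2b13 were bright on the arrays labelled brain and Cyp3a44 was at 599.6 by BIIB and 734 by one-cycle there. Genes of both kinds were bright on the same arrays. On the same arrays the X-inactivation transcript Xist had 1153 by BIIB and 5766 by one-cycle and the Y-linked Eif2s3y had 1718 by BIIB and 742 by one-cycle. In kidney, where Cyp4a12a and Cyp7b1 were brightest, Xist had 199 by BIIB and 529 by one-cycle and Eif2s3y had 2700.4 by BIIB and 1345 by one-cycle. In ovary Xist had 2378 by BIIB and 27614 by one-cycle and Eif2s3y had 119 by BIIB and 109 by one-cycle. In lung Xist had 2258 by BIIB and 11326 by one-cycle and Eif2s3y had 20.6 by BIIB and 22.5 by one-cycle. Lung and kidney, compared above, thus also differed in these transcripts. The part of sex in that comparison was not tested. The other listed Y-linked genes on the array, Kdm5d and Uty, were uneven between the protocols. By BIIB and one-cycle, Kdm5d had 81.5 and 41.4 on the arrays labelled brain, 12.8 and 745.1 in kidney and 7.9 and 184.5 in ovary. Uty had 35.3 and 535.6, 274.5 and 820, and 49.7 and 105.6 in the same order. By BIIB and one-cycle in lung, Kdm5d had 147.4 and 12.7 and Uty had 194.9 and 221.6. Whether the RNAs were pooled over sexes was not tested.

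At the lowest inputs of universal RNA single members reached very high values on 1 array. Cyp2c23 had a signal of 106121 on an Ovation array of 50 pg, against at most 5620 on any other universal RNA array. Cyp2f2 had 11616 on the other Ovation array of 50 pg, against at most 2511 on the rest.

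In sorted lymphocytes, labelled by BIIB from small numbers of cells, 17 of the 58 members had a median signal of at least 500 over 18 arrays, but 0 reached it on all of them. The same count was not made over all probe sets, so it does not show that lymphocytes express these genes. Cyp4f18 had the highest median there, 2654, with values of 82.1 to 10337.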
